A study of Mus musculus with 6 samples.

Results

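The genes described here are 35 markers of the first lineages of the mouse embryo: 11 of endoderm, 8 of trophectoderm, 9 of the primitive streak and mesoderm and 7 of neural ectoderm. They were taken by gene symbol, and the list was drawn up with earlier results of these data known. Of the 35, 34 had at least 1 probe set with a single gene symbol in the platform annotation, out of 18194 genes named in this way, and these 34 were read by 73 of the 45101 probe sets of the array. The gene T (brachyury), which marks the primitive streak, had no such probe set and was not analysed here. The cells were an undifferentiated embryonic stem cell line, Dicer -/- (27H10 in the series title, 27H in the sample titles), which lacks the enzyme that cuts microRNA precursors into mature microRNAs. Both groups carry this deletion and were collected 24 h after transfection. The control group (n = 3) was transfected with an siRNA to Renilla luciferase, a gene that mouse cells do not have, and the other group (n = 3) with Dharmacon mimics of the mmu-miR-290 cluster. All 6 samples come from a single line, and nothing in the labels says that replicates were separate cultures, so p-values measure the spread between these samples only.

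In the early embryo the trophectoderm, which gives rise to the placenta, separates first, and the inner cell mass then divides into primitive endoderm and epiblast. The epiblast passes through the primitive streak to form mesoderm and definitive endoderm, or becomes neural ectoderm where it receives no streak signals. Embryonic stem cells resemble the epiblast before this choice, and the transcription factors listed here are used to tell whether a culture has begun to leave that state. The comparison asks which of these genes differ when miR-290 cluster mimics are added to cells without Dicer.

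The 3′ arms of the cluster are shown because mimics of it are what separates the groups. A microRNA finds its targets mainly through its seed, bases 2 to 8, which is in capitals. RefSeq places 13 mature arms of the cluster on the plus strand, within chr7:3218639-3220837 (GRCm38.p6). Arms that it lists on the minus strand there are not shown. The labels do not say which members of the cluster were in the mixture, and no mature sequence of miR-292a-3p was used here. The sequences of the 6 plus-strand 3′ arms were as follows.
miR-290a-3p: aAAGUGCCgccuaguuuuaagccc
miR-291a-3p: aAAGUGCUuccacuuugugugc
miR-291b-3p: aAAGUGCAuccauuuuguuugu
miR-293-3p: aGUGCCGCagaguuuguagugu
miR-294-3p: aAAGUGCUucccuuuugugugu
miR-295-3p: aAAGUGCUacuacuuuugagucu
The seeds of miR-291a-3p, miR-294-3p and miR-295-3p were identical, and those of miR-290a-3p and miR-291b-3p differed from them in the last base, whereas miR-293-3p carried another seed.

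Each sample was read on 1 array, and array medians ran from 41.7 to 44.9 in intensity. Log2 values of the tested probe sets correlated at 0.963 to 0.969 between arrays of the same group and at 0.959 to 0.964 between arrays of different groups. The stem cell label held in every sample: Pou5f1, Nanog, Sox2 and Zfp42, transcription factors of the pluripotent state, gave intensities from 10219 to 15833. Of 10 such markers 0 passed limma's test, and 2 passed as higher under the second prior used below. Limma's unadjusted p was under 0.05 for 3 of their 17 tested probe sets, against 20.1% of all probe sets. Probe sets bind with different strength, so an intensity ranks the samples for 1 gene and does not rank genes by transcript amount.

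No detection calls were used, so a background level was taken from 149 probe sets of 135 genes that stem cells are not known to use, such as olfactory, taste and vomeronasal receptors, hair keratin-associated proteins and defensins. Their median intensity was 6.59, their 95th percentile 28.0 and their 99th percentile 62.7. On its brightest probe set, a member was called near background when both group means (of log2 values) were under the 95th percentile. By this rule 7 of the 34 members were near background: Hnf4a and Ttr of the endoderm list, Cdx2 and Elf5 of the trophectoderm list, Tbx6 and Fgf8 of the mesoderm list, and Neurog2 of the neural list. By the higher group mean, a further 12 lay between the 95th and the 99th percentile, and 15 lay above both. The last group held Sparc, Dab2 and Sox7; Tfap2c, Gata3, Ascl2, Esx1 and Hand1; Evx1, Eomes and Kdr; and Tubb3, Pax6, Nes and Sox1. Of these, Sox7 in the control group and Nes and Sox1 in the mimic group were under the 99th percentile. Gata6, Afp and Hes5 in the control group and Gsc in the mimic group were under the 95th. The level is a description and does not show that a gene above it is expressed or that a gene below it is silent.

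**Figure D1:**
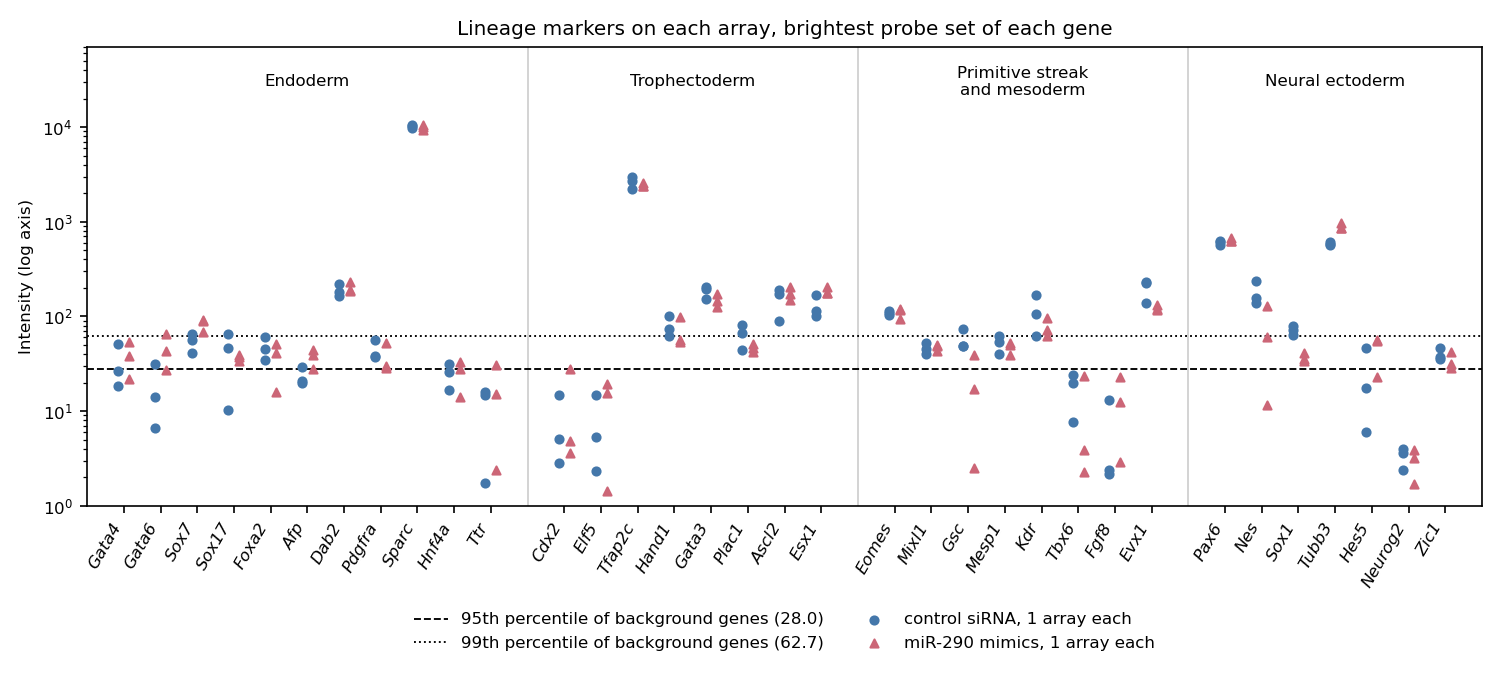
Intensity on a log axis of the brightest probe set of each of the 34 measured lineage markers, with 1 symbol per array (circles, control siRNA; triangles, miR-290 mimics). The dashed and dotted lines mark the 95th (28.0) and 99th (62.7) percentile of the background genes; Sparc, Tfap2c, Pax6 and Tubb3 stand far above both lines, while Cdx2, Elf5, Fgf8 and Neurog2 lie below the dashed line on every array.

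Few lineage markers differed between the groups. A probe set was tested if its mean log2 intensity was at least 4, an intensity of 16, which 45 of the 73 member probe sets and 28 of the 34 genes reached. Of these 45, 1 was lower with the mimics (Sox1) and 1 was higher (Tubb3) by limma, taking an adjusted p (Benjamini-Hochberg, over all 29167 probe sets tested) under 0.05 as passing. Of all tested probe sets 0.946% were lower and 0.343% were higher by the same rule, so a single member in each direction is too few to set the list apart. When limma's prior variance was allowed to depend on intensity and was estimated robustly (the level-dependent robust prior), 0 member probe sets were lower and 1, Tubb3, was higher, where 6.56% and 4.73% of all probe sets were (1914 and 1379 probe sets, or 1423 and 1762 once arrays were also centred on their medians).

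The shares of members with a low unadjusted p or with separate groups were near those of all probe sets, while differences of at least 1 on the log2 scale were more frequent. Without adjustment, limma's p was under 0.05 for 9 of the 45 (20.0%), against 20.1% of all probe sets. The arrays of the groups did not overlap for 12 (26.7%), 6 lower and 6 higher with the mimics, against 29.2% of all probe sets. The log2 difference was below 0 for 22 and above 0 for 23, with a median of 0.01, beside a median of −0.01 over all tested probe sets. A log2 difference of at least 1 in either direction was seen for 6 (13.3%), against 5.77% of all probe sets. All 6 had a mean log2 intensity under 6.5 and 0 of them passed the test. Below that level 6 of 30 member probe sets (20.0%) and 13.2% of all 11418 tested probe sets differed by as much. The limit of 6.5 was not planned and lies just above the brightest of the 6 (Nes, mean log2 6.46). The comparison below it is therefore a description only.

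**Figure D2:**
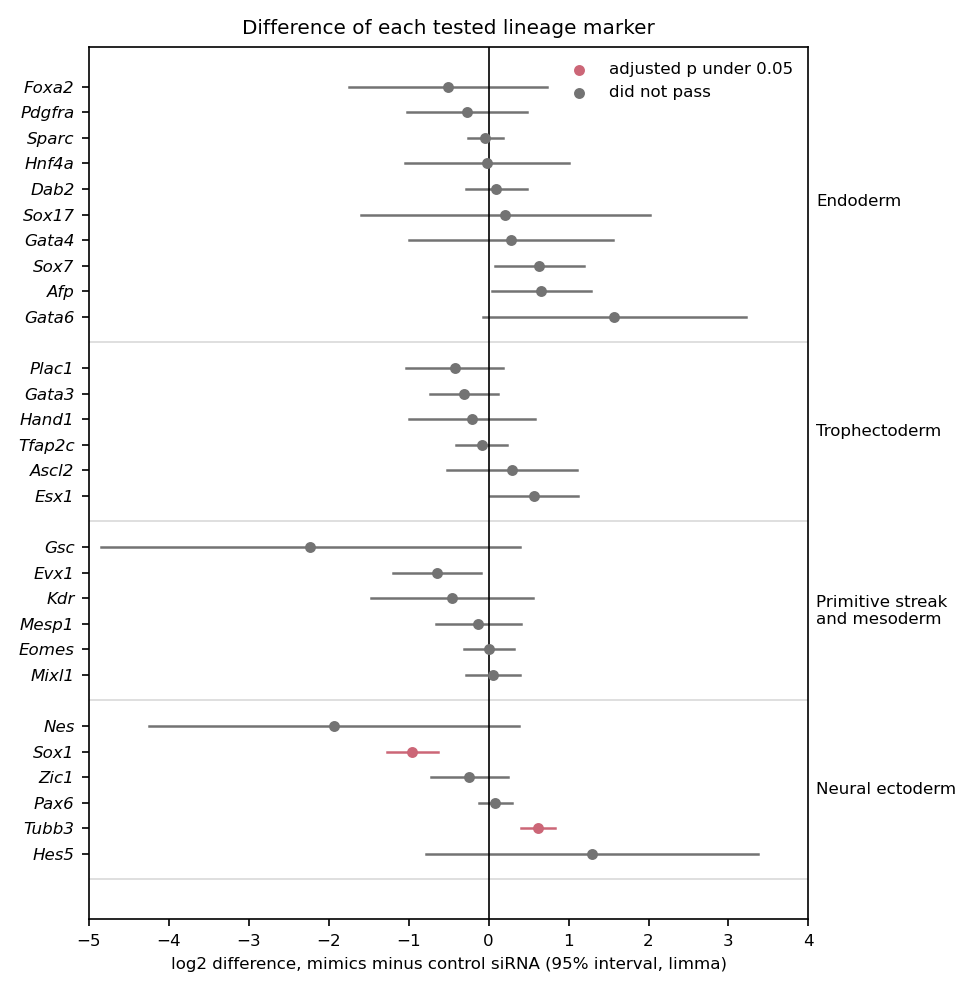
Log2 difference, mimics minus control siRNA, of the brightest probe set of the 28 tested lineage markers with its 95% interval from limma, by lineage. Sox1 (−0.95) and Tubb3 (0.62) are drawn in red as the only members that passed; the intervals of Gsc, Nes and Hes5 are the widest and include 0.

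The neural ectoderm list held both members that passed. Tubb3, the tubulin of young neurons, gave 575, 608 and 570 (569.8) on control arrays and 863, 972 and 854 on mimic arrays. All 3 mimic arrays were higher than every control array. The mean was 584 ± 20.6 against 896 ± 65.6 (SD, n = 3 each), and the 1.53-fold rise passed (log2 difference 0.62 ± 0.085 SE, 95% interval 0.40 to 0.83, limma adjusted p = 0.0491). Tubb3 had a single probe set. In bulk RNA, more cells that express a gene and more of its RNA per cell cannot be told apart. The level-dependent robust prior gave a limma adjusted p of 0.001, and it called the rise whichever array was left out (adjusted p from 0.00235 to 0.00728). The constant prior did not call it in any of these 6 fits (limma adjusted p from 0.136 to 0.163), but in those fits it called 0 of all tested probe sets, or 1 without control replicate 3, so this loss is not particular to Tubb3. Median centring ended the call as well (limma adjusted p = 0.0608). Over all probe sets it cut the calls from 276 lower and 100 higher to 103 and 50.

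Sox1, an HMG-box factor that is among the first genes of the neural plate, changed in the other direction. Its intensities were 71.4, 63.7 and 79.7 on control arrays and 33.7, 41.4 and 35.8 on mimic arrays, so the groups did not overlap. The mean fell from 71.6 ± 8.01 to 36.9 ± 3.98 (SD, n = 3 each; log2 difference −0.95 ± 0.13 SE, 95% interval −1.28 to −0.63, limma adjusted p = 0.0458). The mimic values lay between the 95th and the 99th percentile of the background genes, so the size of the fall is uncertain, and it was −0.73 once 16 was added to all values before the log2 step (an offset of 16). The level-dependent robust prior did not call it (limma adjusted p = 0.0569), nor did median centring (0.0556), nor the constant prior in any fit that left out an array (0.129 to 0.153), where almost nothing on the array passed. The robust prior called Sox1 in 0 of those 6 fits as well (limma adjusted p from 0.0774 to 0.188). In each of them that prior called at least 1172 of all probe sets lower. A second Sox1 probe set was below the filter, at 2.09 to 39.1 over the 6 arrays, and gave no measure of the change.

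Pax6 encodes a paired-box factor of neural progenitors. Its brightest probe set gave 562, 615 and 626 on control arrays and 623, 667 and 619 on mimic arrays, and the groups overlapped (log2 difference 0.08 ± 0.081 SE, 95% interval −0.12 to 0.29, limma adjusted p = 0.613). A second Pax6 probe set gave a difference of −0.003 with an interval of −0.26 to 0.25. For these, the interval left out a 1.5-fold change in either direction. Of 2 dimmer ones in the fit, the brighter gave −1.19 (95% interval −4.56 to 2.18), with mimic replicate 2 at 2.67 and the other arrays between 36.7 and 74.8, and the dimmer gave 0.13 (−1.53 to 1.79).

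Nes encodes nestin, an intermediate filament protein of neural progenitors that mesenchymal cells also make. Its brightest probe set gave 137, 158 and 234 on control arrays and 11.6, 128 and 61.3 on mimic arrays. The mimic arrays were all lower, but they spread more than 10-fold among themselves, and the difference of −1.94 ± 0.91 SE did not pass (limma adjusted p = 0.319). Its second probe set gave 65.4 ± 32.1 and 67.2 ± 21.4 (SD, n = 3 each) and a difference of 0.11, so the probe sets of Nes disagreed. Without mimic replicate 2, the mimic nearest the controls, the brighter probe set passed under the robust prior (−2.69, limma adjusted p = 0.0405). Leaving that array out widens the difference, so that call adds no support. The other tested neural members were dim: Hes5, a Notch target, at 23.1 ± 20.5 and 44.7 ± 18.8 (1.29, 95% interval −0.79 to 3.37), and the zinc finger gene Zic1 at 39.8 ± 6.07 and 33.9 ± 6.97 (−0.24). The proneural factor gene Neurog2 did not exceed 3.98 on any array.

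Of the primitive streak and mesoderm list 0 of 7 tested probe sets passed in limma with either prior. With the constant prior 1 had an unadjusted p under 0.05, against 20.1% of all probe sets. The difference was below 0 for 5 of the 7, beside 50.7% of all tested probe sets, and 7 are too few to show a direction. Evx1, a homeobox gene of the posterior streak, gave 229, 224 and 138 on control arrays and 130, 120 and 118 on mimic arrays. The groups did not overlap, but control replicate 3 lay close to the mimics, and the difference of −0.65 ± 0.22 SE did not pass (limma adjusted p = 0.195; 0.0694 with the level-dependent robust prior). Without control replicate 3, the control nearest the mimics, the robust prior called it (−0.88, limma adjusted p = 0.0171). Leaving that array out widens the difference, so that call adds no support. Gsc, the homeobox gene goosecoid of the anterior streak, gave 48.2, 49.0 and 73.2 on control arrays and 17.1, 2.50 and 39.3 on mimic arrays. All mimic arrays were lower, yet they ranged from 2.50 to above the 95th percentile of the background genes, and the difference of −2.23 ± 1.04 SE did not pass (limma adjusted p = 0.313). With the offset of 16 it was −1.15. The robust prior called it without mimic replicate 3 (−3.09, limma adjusted p = 0.0425). That array was the mimic nearest the controls, so leaving it out widens the difference and the call adds no support.

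Eomes, a T-box factor of the streak that the trophectoderm also uses, gave 104, 113 and 109 on control arrays and 92.8, 119 and 118 on mimic arrays, and the groups overlapped, with a difference of 0.01 (95% interval −0.30 to 0.32, limma adjusted p = 0.982). Its second probe set gave −0.07. Mixl1, a homeobox gene that Nodal and BMP signals induce, stood at 45.9 ± 6.32 and 47.5 ± 3.85 (SD, n = 3 each; 0.05, 95% interval −0.28 to 0.39). Mesp1, a factor of early cardiac mesoderm, was at 51.9 ± 11.1 and 47.1 ± 7.25 (−0.13). Kdr, a receptor for VEGF on blood and vessel precursors, varied more within the control group, 62.5 to 169, than between the groups (−0.46, limma adjusted p = 0.57). Tbx6, a factor of presomitic mesoderm, did not exceed 23.9 and Fgf8, a secreted growth factor of the streak, did not exceed 22.7 on any array.

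**Figure D3:**
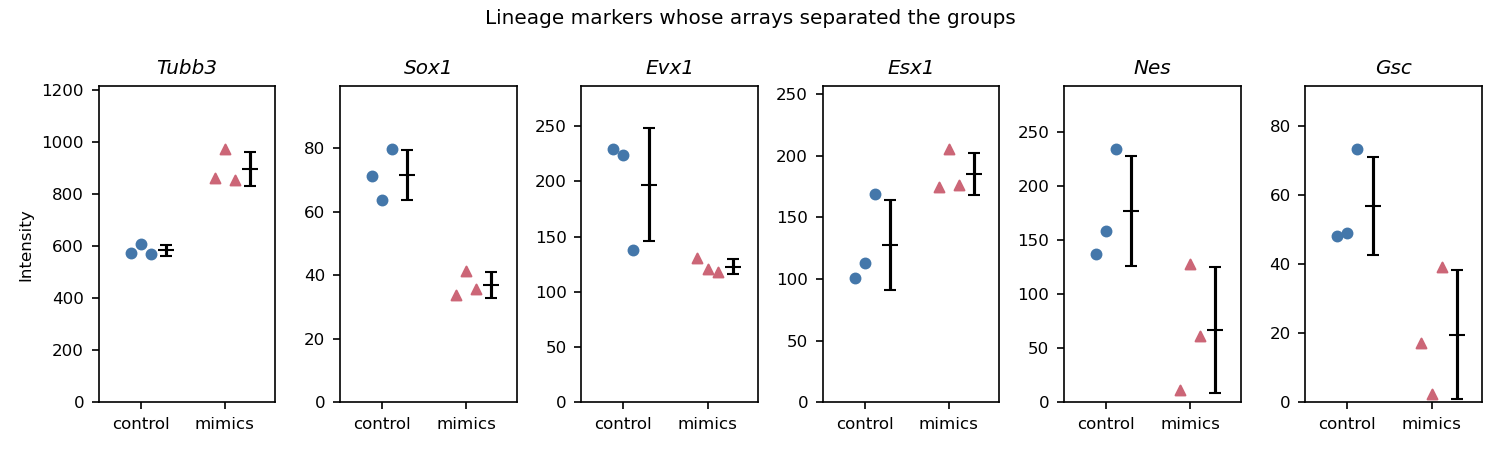
Intensity of 6 lineage markers on each array (linear axes from 0; circles, control siRNA; triangles, miR-290 mimics; bars, mean ± SD, n = 3). Tubb3 and Sox1 separate the groups with little spread, while Evx1, Esx1, Nes and Gsc, which did not pass, separate them with a wider spread.

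Of the trophectoderm list 0 of 10 tested probe sets passed in limma with either prior. With the constant one 3 had an unadjusted p under 0.05, against 20.1% of all probe sets. Tfap2c, the AP-2 gamma factor of trophectoderm and germ cells, gave 2942, 2206 and 2693 on control arrays and 2403, 2370 (2369.6) and 2557 on mimic arrays for its brightest probe set, and the groups overlapped (log2 difference −0.09 ± 0.13 SE, limma adjusted p = 0.742). Its other probe sets gave −0.24 and −0.27, and on both of them all mimic arrays were lower than all control arrays (limma adjusted p = 0.232 and 0.337). Gata3, a zinc finger factor of the trophectoderm, gave 153, 193 and 202 on control arrays and 125, 147 and 170 on mimic arrays (−0.31, 95% interval −0.73 to 0.11, limma adjusted p = 0.373). Hand1, a factor of giant cells, stood at 79.2 ± 20.2 and 69.9 ± 25.4 (−0.21), and Plac1, a placental secreted protein gene, at 63.8 ± 18.2 and 46.3 ± 4.62 (−0.42), with SD and n = 3 each.

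Esx1 and Ascl2 lay in the other direction. Esx1, an X-linked homeobox gene of the placental labyrinth, gave 101, 113 and 169 on control arrays and 175, 205 and 176 on mimic arrays. The groups did not overlap, although control replicate 3 came close to the mimics, and the difference of 0.57 ± 0.22 SE did not pass (limma adjusted p = 0.234). Without that array, the control nearest the mimics, the robust prior called it (0.80, limma adjusted p = 0.0349). Leaving that array out widens the difference, so that call adds no support. Ascl2, a factor of the spongiotrophoblast, had a difference of 0.29 on its brightest probe set, where the groups overlapped, and of 0.51 and 0.90 on the others, where all mimic arrays were higher (limma adjusted p = 0.655, 0.139 and 0.31). Cdx2 and Elf5, which define the trophectoderm and its stem cells, were below the filter on all their probe sets, and their brightest ones did not exceed 27.7 and 19.3.

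Limma called 0 of 18 tested probe sets of the endoderm list with either prior. With the constant one 3 had an unadjusted p under 0.05, against 20.1% of all probe sets. Sparc encodes a matrix-binding glycoprotein that parietal endoderm secretes in quantity and that fibroblasts also make. It gave 10325, 10589 and 9784 on control arrays and 10069, 10591 and 9228 on mimic arrays (log2 difference −0.04 ± 0.086 SE, 95% interval −0.26 to 0.18, limma adjusted p = 0.828). A second bright Sparc probe set gave −0.11 (95% interval −0.31 to 0.09). A dim Sparc probe set gave 5.54, 32.7 and 6.64 on control arrays and 45.6, 35.9 and 63.2 on mimic arrays. Its difference of 2.14 did not pass (limma adjusted p = 0.2), and the bright probe sets do not share it. Without control replicate 2, the control nearest the mimics, the dim one passed under the robust prior (2.95, limma adjusted p = 0.0244). That call adds no support, because leaving that array out widens the difference. Dab2, an endocytic adaptor of primitive endoderm, gave 163, 182 and 219 on control arrays and 229, 189 and 184 on mimic arrays, with overlapping groups (0.10, 95% interval −0.29 to 0.48).

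The transcription factors of primitive endoderm were dim. Sox7 gave 65.1, 56.2 and 40.7 on control arrays and 88.8, 68.1 and 92.1 on mimic arrays; all mimic arrays were higher, and the difference of 0.63 ± 0.22 SE did not pass (limma adjusted p = 0.201). Gata6 stood at 17.4 ± 12.6 and 45.3 ± 19.1 (SD, n = 3 each; 1.57, 95% interval −0.07 to 3.22, limma adjusted p = 0.267) with overlapping groups, and Gata4 at 32.1 ± 17.1 and 38.0 ± 16.2 (0.28). Sox17, of primitive and definitive endoderm, was at 40.7 ± 28.1 and 36.5 ± 2.90 (0.21 as a difference of log2 means, above 0 because control replicate 2 was low at 10.4; −0.39 on its second probe set), and the forkhead gene Foxa2 at 47.0 ± 12.8 and 35.9 ± 17.9 (−0.51). Pdgfra, a growth factor receptor of primitive endoderm and of mesenchyme, was at 43.7 ± 10.5 and 37.0 ± 13.0 (−0.27). Afp (alpha-fetoprotein), a secreted product of visceral endoderm and liver, was at 23.3 ± 5.39 and 36.8 ± 8.38 (0.66, limma adjusted p = 0.228). Only its mimic mean lay above the 95th percentile of the background genes, and its second probe set gave 0.13. Ttr (transthyretin), another such product, was near background and ran from 1.72 to 30.4 on the 6 arrays. Hnf4a, a nuclear receptor of the same cells, was at 24.7 ± 7.56 and 25.0 ± 9.74.

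Further genes linked to these lineages were taken from 4 lists of 15, of which 55 had a probe set and 46 were tested. By gene, 5 fell and 1 rose (7 and 1 of 73 tested probe sets, against the shares of 0.946% and 0.343% given above). These lists were chosen with earlier results of these data known, and Rhox9 after its values were seen. Krt8 alone gave 3 of the 7 lower probe sets, so the counts do not measure an excess over those shares. In the endoderm list Cxcr4, a chemokine receptor of definitive endoderm and many migrating cells, gave 165, 137 and 157 on control arrays and 58.1, 62.2 and 60.3 on mimic arrays. It fell 2.53-fold, the largest change among the 6 genes that passed (log2 difference −1.34 ± 0.096 SE, limma adjusted p = 0.0231). Apoe, which encodes a lipid carrier of visceral endoderm and many other cells, rose by 0.58 on the log2 scale, with means of 3260 ± 157 and 4869 ± 177 (SD, n = 3 each), at a limma adjusted p of 0.0457. The other 11 tested genes of that list did not pass, although Col4a2, a basement membrane collagen gene, did with the level-dependent robust prior (−0.63, limma adjusted p = 0.047, called in 1 of 6 fits without 1 array).

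In the trophectoderm list of 12 tested genes, 4 fell and 0 rose. Ets2, a transcription factor of trophoblast, passed only with the level-dependent robust prior (−0.60, limma adjusted p = 0.00181, called in 6 of 6 fits without 1 array; 0.0752 with the constant prior). Krt8 and Krt18, the paired keratins of simple epithelia, fell by 0.66 and 0.60 on the log2 scale on their brightest probe sets (limma adjusted p = 0.0457 and 0.0416), and all 3 Krt8 probe sets passed. Rhox6, an X-linked homeobox gene of placenta and germ line, gave 4177, 3844 and 4056 on control arrays and 2546, 2801 and 2664 on mimic arrays (−0.59, limma adjusted p = 0.0457). Its neighbour in the same cluster, Rhox9, was named after its values were seen; it fell by 0.51 (limma adjusted p = 0.0497), and the similar sequence of the pair means that their probe sets may share signal. The calls of Cxcr4, Apoe, Krt8, Krt18, Rhox6 and Rhox9 held under the robust prior in each of the 6 fits without 1 array. With the constant prior 0 of them held in those fits, as for nearly all probe sets (limma adjusted p from 0.101 to 0.163), and median centring ended all of them except that of Cxcr4. These falls stand beside values of Cdx2 and Elf5 near background and of Tfap2c, Gata3 and Hand1 that did not pass. Esx1 and Ascl2, which did not pass either, lay in the other direction. In the further trophectoderm list 15 of 21 tested probe sets were below 0 and 6 above. Those above included the 3 of Tfap2a (0.29, 0.99 and 0.94), which did not pass.

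**Figure D4:**
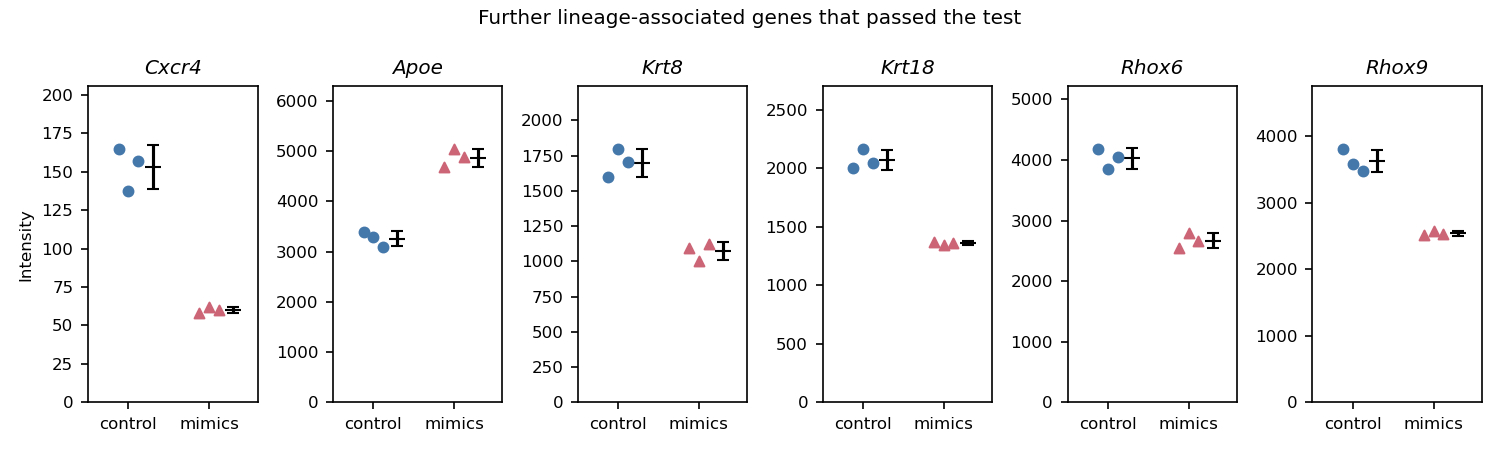
Intensity of 6 further lineage-associated genes that passed the test, on each array (linear axes from 0; circles, control siRNA; triangles, miR-290 mimics; bars, mean ± SD, n = 3). The groups are separate for all 6, with Apoe higher and Cxcr4, Krt8, Krt18, Rhox6 and Rhox9 lower with the mimics. Because the genes shown were picked for passing on these arrays, their separation is no added support.

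In the mesoderm list of further genes 0 of 9 tested passed in limma. An unadjusted p under 0.05 was seen for 2, against 20.1% of all probe sets. Bmp4, a ligand that patterns the streak, had intensities of 489, 620 (620.4) and 501 on control arrays and 902, 877 and 840 (840.4) on mimic arrays. Its difference of 0.71 passed with the level-dependent robust prior (limma adjusted p = 0.00122, called in 6 of 6 fits without 1 array). It did not pass with the constant prior (limma adjusted p = 0.0619). Snai1, a repressor of epithelial genes, gave −0.13. In the neural list 0 of 12 tested genes passed in limma. Of its 22 probe sets in the fit 6 had an unadjusted p under 0.05, against 20.1% of all probe sets. With the level-dependent robust prior 1 was lower (Sox11) and 3 were higher (Pou3f1, Gbx2 and the second Neurod1 probe set). Of all probe sets 6.56% were lower and 4.73% higher with that prior. In the 6 fits without 1 array that prior called Pou3f1 in 0, Sox11 and Neurod1 in 1 each and Gbx2 in 2. Its brightest members were Otx2, a homeobox gene of epiblast and forebrain, with a difference of 0.21 (means 1392 ± 149 and 1600 ± 68.2, SD, n = 3 each; limma adjusted p = 0.354), and Neurod1, a factor of neuronal differentiation, at 0.17 for the brightest probe set (limma adjusted p = 0.451) and 0.38 for the second (0.176; 0.0373 with the robust prior). Ets2, Col4a2, Sox11, Pou3f1 and Gbx2 were named after their values were seen.

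Markers of fibroblasts, which can be carried along from feeder layers and which share Sparc, Pdgfra and Nes, were measured beside these results. Of 10 such genes 4 were near background, among them the defining collagen genes Col1a1, Col1a2 and Col3a1, which did not exceed 24.4, 32.2 and 17.1 on any array. Tagln, an actin-binding protein gene of smooth muscle and fibroblasts, was the 1 gene of the list that passed, and it fell by 1.05 on the log2 scale (limma adjusted p = 0.0422; 0.0542 with median centring). Summed over the brightest probe set of each gene, the intensities were 1147 to 1197 with the control siRNA and 805 to 885 with the mimics. Tagln, at means of 539.5 and 260.2, made up most of that gap, while Pdgfrb, at 106 and 143 with separate groups, and Thy1, at 170 (169.9) and 184, lay in the other direction and did not pass. Of the 6 tested genes 4 had a difference below 0, beside 50.7% of all tested probe sets. So few genes cannot show a direction. Dcn was lower, at 82.9 and 44.6 with separate groups, and did not pass (−0.90, limma adjusted p = 0.105). Lum (−1.22) and Acta2 (−0.28) were lower with overlapping groups and did not pass. The part of these genes in the values of Nes was not tested.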

How the data were processed

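Biotinylated cRNA was read on Affymetrix arrays, per the labels. As deposited, each probe set has a linear intensity for every array. The submitters' processing notes name GCRMA, but the values are not on a log2 scale and each array's mean without the lowest and highest 2% is 500.0, so the tool that made them is not settled. No genome build is given in the sources used here.

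Values were log2-transformed without an offset. Control probe sets (64) and probe sets with a mean log2 value under 4 (15870) were left out, and 29167 were fitted with limma 3.58.1 in R 4.3.3 (lmFit, eBayes, 2-sided, 6 arrays, no covariate), with Benjamini-Hochberg adjustment and a threshold of 0.05. Log2 differences are mimics minus control; means and SDs are linear. The brightest probe set (highest mean log2) stood for a gene. All members are named; values for every array are given for members that passed, the 2 brightest of each lineage, members with groups that do not overlap and a log2 difference of at least 1, and a few others chosen after their values were seen. From each further list up to 3 genes that passed with the largest change, or else up to 2 with the highest level, were named. The members and lists were chosen with earlier results of these data known. The number of arrays limits the precision.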

Additional observations from a re-analysis of the deposited data

How the results depend on the processing

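Of the 598 values that 29 member probe sets took under the alternatives, 528 kept their direction and their side of the threshold; 38, of 10 probe sets with a log2 difference of at most 0.29, changed sign without passing, and 0 called values changed sign. The 1 lower member probe set (Sox1) became 0 with median centring, with the level-dependent robust prior, with no filter, with the replicate block, with the robust prior joined to the block or to median centring, and with the higher filters (6 or 8 on the log2 scale), which leave Sox1 out. The 1 higher (Tubb3) became 0 with median centring, with no filter and with the replicate block. Over all probe sets 0 were called with no filter. Median centring left 103 lower and 50 higher, against 276 and 100 in the main fit. With the filters at 6 and 8, where 1 member stayed higher, 1522 and 1800 of all probe sets were lower and 851 and 1200 higher. Without 1 array at a time, 0 lower and 0 higher were called with the constant prior (3 to 7 member probe sets at an unadjusted p under 0.05 in limma), and 0 to 1 lower and 1 to 2 higher with the robust prior; over all probe sets the constant prior then called 0 lower and 0 higher (1 higher without control replicate 3), and the robust prior 1172 to 1586 lower and 713 to 1234 higher. In these robust fits the lower member was Evx1, Gsc or Nes and never Sox1. The higher ones were Tubb3 in every fit, joined in single fits by Esx1 or the dim Sparc probe set. The calls of Evx1, Gsc, Nes, Esx1 and that Sparc probe set each came from a single fit. In each case that fit left out the array nearest the other group, which widens the difference. The robust prior combined with another setting was chosen after seeing the data.

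The replicate numbers do not pair the samples: deviations of same-numbered arrays correlated at −0.006, 0.012 and 0.024. With the replicate block 0 of all probe sets passed with the constant prior (5189 at an unadjusted p under 0.05 in limma), but 2030 lower and 1528 higher with the robust prior. The count of members above the background level was 15 at the 99th percentile in place of 27 at the 95th. Signal near background limits what can be said of the 19 members under the 99th percentile.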
